A study of Mus musculus with 8 samples.

Results

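The miR-143 and miR-145a genes are neighbouring microRNA genes of the mouse, followed here through cell-cycle arrest and re-entry in 8 small-RNA libraries. They were chosen by name, as 2 of the 1174 annotated mouse miRNA hairpins, and not by a rule on measured values. Earlier results of these data were known when they were chosen. Reads were assigned to an arm of a hairpin when their first 20 bases were identical to it, whatever their 3′ end. Of their 4 arms, miR-143-3p, miR-143-5p and miR-145a-5p are 3 of the 422 mature miRNAs counted in this way. The fourth, miR-145a-3p, had no 5′ end that held 50% of its inserts of 18 to 26 nt that match the hairpin throughout. It was counted separately, by the first 20 bases, over its 3 most used starts.

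In vertebrates miR-143 and miR-145 are cut from a shared primary transcript, which in smooth muscle is driven by serum response factor and its coactivator myocardin. The pair is known for favouring the contractile over the proliferating state of vascular smooth muscle, with Klf4 among the targets of miR-145 and Elk1 among those of miR-143. Both are also abundant in fibroblasts and other mesenchymal cells, and low in epithelium. Since each hairpin is cut and loaded into Argonaute on its own, the mature products of a shared transcript need not stay at a fixed ratio.

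All libraries came from NIH-3T3, an immortalised mouse fibroblast line grown in 10% serum, and no agent or allele besides the culture conditions distinguishes the groups. In the serum experiment, cells were starved for 48 h (labelled G0, 0 h) and then given 20% serum for 12 h (G1), 16 h (S), 20 h (G2/M) or 24 h (G1). For contact inhibition, cells seeded at 12% confluency were sampled while asynchronous (day 0) and, labelled G0, after 3 and 5 days. Each condition has 1 library, and the groups tested were the 3 libraries labelled G0 against the other 5. G1 was also the label of more than 1 library, 12 h and 24 h, and was not tested as a group. Nothing says whether the libraries come from separate cultures. The phases are those of the labels, and a miRNA library cannot check them.

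On build GRCm38 both hairpins lie on the minus strand of chromosome 18, Mir143 at 61649196 to 61649258 and Mir145a at 61647825 to 61647894, with 1301 nt between them. In the GENCODE annotation no other gene overlaps either hairpin, in an exon or in an intron. The long noncoding RNA gene Carmn lies on the same strand at 61649625 to 61665537, and its end is 366 nt from Mir143, which lies downstream of it.

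The libraries held 707202 to 8512472 reads, of which 137579 to 892506 were assigned to mature miRNAs. In the 5 serum libraries 60.4 to 92.9% of the reads were of 2 sequences taken to be marker oligonucleotides, against at most 0.0354% in the 3 contact libraries. The adapter was not found in 0.362 to 1.52% of serum reads and in 23.3 to 32.3% of contact reads, and inserts too short to keep made up 27.9% of reads at serum 0 h and at most 1.83% in any other library. All 7 listed fibroblast miRNAs were found, and together they made up 11.1 to 33.4% of miRNA reads. Of the 7 listed skeletal and cardiac muscle miRNAs, 2 were found, at a summed share of at most 0.0592%, the endothelial miR-126a arms reached at most 0.00291%, and the 4 neural miRNAs summed to 0.0435 to 0.0765% in the libraries labelled G0 and were highest at serum 16 h. Epithelial markers summed to 0.288% of miRNA reads in the serum 0 h library and to at most 0.00653% in the others, and blood markers to 0.0450% and at most 0.000913%. Whether RNA of other cells in the serum 0 h library touched the values of miR-143 or miR-145a was not tested.

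miR-143-3p, the major arm of miR-143, was among the more abundant miRNAs of these cells, and it was most abundant after 5 days in the contact experiment. In the serum experiment its level, in TMM-scaled counts per 1000000 miRNA reads (CPM), was 10638 CPM at 0 h, 5296 CPM at 12 h, 11757 CPM at 16 h, 6798 CPM at 20 h and 7479 CPM at 24 h. In the contact experiment it was 9713 CPM on day 0, 11042 CPM on day 3 and 51232 CPM on day 5. These levels rest on 3630, 1492, 12246, 1611 and 1350 reads in the serum libraries and on 1788, 3911 and 13206 reads in the contact libraries. The arm made up 1.53% of miRNA reads in the serum 0 h library, 0.735% at 12 h and 2.86% on day 5 of contact inhibition, where it ranked 10 among all mature miRNAs, against 18 to 27 in the other libraries.

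miR-145a-5p, the major arm of miR-145a, was less abundant than miR-143-3p in each library by this count and followed another course. It stood at 1477 CPM at 0 h, 3734 CPM at 12 h, 1716 CPM at 16 h, 2426 CPM at 20 h and 1507 CPM at 24 h after serum. In the contact experiment it stood at 1374 CPM on day 0, 466 CPM on day 3 and 497 CPM on day 5. The reads behind these levels were 504, 1052, 1787, 575 and 272 in the serum libraries and 253, 165 and 128 in the contact libraries. Its share of miRNA reads was 0.518% at 12 h, where it ranked 31, and 0.0277% on contact day 5, where it ranked 128.

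By TMM-scaled level, the library with the least miR-143-3p, serum 12 h, was the library with the most miR-145a-5p. By share of miRNA reads, contact day 0 had the least miR-143-3p, at 0.548% against 0.735% at serum 12 h. In order of TMM-scaled level, miR-143-3p was lowest at serum 12 h. Upwards from there came serum 20 h, serum 24 h, contact day 0, serum 0 h, contact day 3, serum 16 h and contact day 5. Of these neighbours in the order, contact day 3 and serum 0 h had a ratio of 1.04 whose 95% interval from counting error (0.992 to 1.09) included 1. For miR-145a-5p the order was contact day 3, day 5, day 0, then serum 0 h, 24 h, 16 h, 20 h and 12 h. Contact days 5 and 3, serum 0 h and contact day 0, and serum 24 h and 0 h were neighbours whose intervals included 1. From its lowest to its highest library by TMM-scaled level, miR-143-3p spanned 9.67-fold and miR-145a-5p 8.02-fold. Of the 73 mature miRNAs with at least 100 reads in every library, 16 spanned more than miR-143-3p by this level and 25 more than miR-145a-5p. By share of miRNA reads, miR-145a-5p spanned more than miR-143-3p. Its share ran from 0.0277% on contact day 5 to 0.518% at serum 12 h, and that of miR-143-3p from 0.548% on contact day 0 to 2.86% on day 5.

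**Figure D1:**
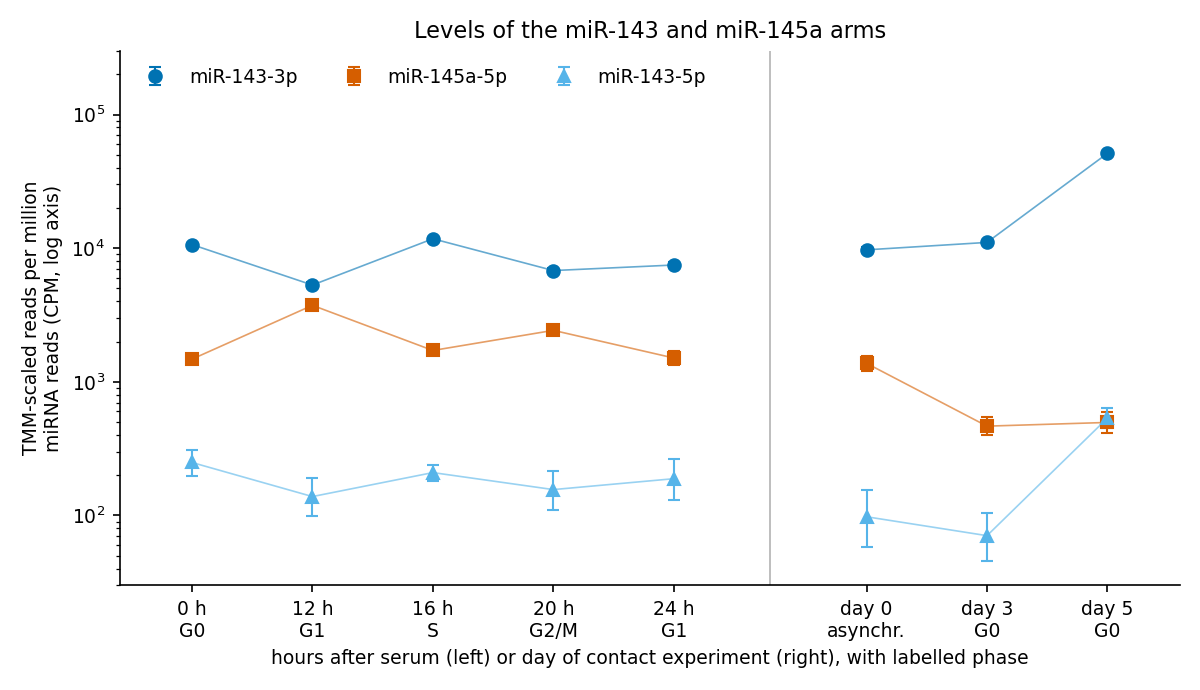
Levels of 3 arms in each library, in TMM-scaled counts per 1000000 miRNA reads on a log axis, with serum times on the left and contact days on the right; bars are 95% binomial intervals from counting error. miR-143-3p is highest on contact day 5 (51232 CPM), while miR-145a-5p is highest at serum 12 h (3734 CPM) and lowest on contact day 3 (466 CPM).

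During contact inhibition the major arms moved apart. On day 5 miR-143-3p was at 5.27 times its day 0 level (95% interval from counting error, 5.02 to 5.54), and miR-145a-5p was at 0.361 times its day 0 level (0.290 to 0.449). Between these libraries 38% of the compared miRNAs were at least 2-fold higher on day 5 and 27.2% at least 2-fold lower, so changes of this kind were common. Counting only inserts that match the hairpin throughout, miR-143-3p on day 5 was at 4.57 times its day 0 level (4.34 to 4.82). By that count miR-145a-5p was at 0.513 times (0.392 to 0.671), so less than 2-fold lower. With DESeq2 size factors as the scaling, miR-143-3p was at 4.28 times and miR-145a-5p at 0.293 times. By TMM-scaled level the arms did not part at the same time. On day 3 miR-145a-5p was already at 0.339 times its day 0 level (0.277 to 0.414), in a comparison in which 20.9% of miRNAs were at least 2-fold lower, while miR-143-3p was at 1.14 times (1.07 to 1.20). On day 5 miR-143-3p was at 4.64 times its day 3 level (4.48 to 4.81), where 26.8% of miRNAs were at least 2-fold higher, and miR-145a-5p was at 1.07 times (0.839 to 1.35). With total miRNA reads as the scaling, miR-143-3p was at 1.63 times its day 0 level on day 3, and on day 5 at 3.20 times its day 3 level. By that scaling miR-145a-5p on day 3 was at 0.485 times its day 0 level, and the share of miRNAs at least 2-fold lower was 5.88%. On day 5 miR-145a-5p was then at 0.735 times its day 3 level, so by total reads each arm changed in each interval.

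miR-143-5p, the minor arm of the miR-143 hairpin, was at 97.8 CPM on day 0, 70.6 CPM on day 3 and 535 CPM on day 5. On day 5 it was at 5.47 times its day 0 level (3.34 to 9.51), on 138 and 18 reads. Both arms of miR-143 were thus higher on day 5 than on either earlier day. In the serum libraries miR-143-5p was at 249, 138, 209, 156 and 188 CPM at 0, 12, 16, 20 and 24 h, on 85, 39, 218, 37 and 34 reads. Every step of its order below the highest library, contact day 5, had an interval that included 1.

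In the serum experiment the 12 h library held the lowest level of miR-143-3p and the highest of miR-145a-5p. For miR-143-3p it lay nearest to 20 h and 24 h, at which the level was 1.28 and 1.41 times that of 12 h. At 0 h miR-143-3p was at 2.01 times its 12 h level (1.89 to 2.14), in a comparison in which 24.4% of miRNAs were at least 2-fold higher at 0 h. miR-145a-5p at 0 h was at 0.396 times its 12 h level (0.355 to 0.440), where 28.3% were at least 2-fold lower. At 16 h miR-143-3p was at 2.22 times its 12 h level (2.10 to 2.34) and miR-145a-5p at 0.459 times (0.425 to 0.496), among 31.5% of miRNAs at least 2-fold higher and 19.4% at least 2-fold lower. Between the 0 h and 16 h libraries, miR-143-3p was at 0.905 times (0.872 to 0.939) and miR-145a-5p at 0.861 times (0.778 to 0.951) at 0 h, and the direction of each turned, to 1.11 and 1.06 times, with total miRNA reads as the scaling.

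The serum 12 h library held 233 of the 422 mature miRNAs, against 303 to 400 in the other libraries. Its 1492 miR-143-3p reads were of 8 distinct inserts and its 1052 miR-145a-5p reads of 13. The serum 0 h library was also of low variety, with 13 distinct inserts in 3630 miR-143-3p reads and 9 in 504 miR-145a-5p reads. Serum 16 h had 41 and 77, and contact day 0 had 18 in 1788 miR-143-3p reads and 47 in 253 miR-145a-5p reads. The part of this low variety in the 0 h and 12 h levels was not tested, and fewer cells of a type and less RNA per cell cannot be told apart in such bulk libraries.

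The ratio of miR-143-3p to miR-145a-5p compares reads of a single library and needs no scaling between libraries. It was 7.20 at serum 0 h (95% interval from counting error, 6.56 to 7.92), 1.42 at 12 h (1.31 to 1.54), 6.85 at 16 h (6.52 to 7.21), 2.80 at 20 h (2.55 to 3.09) and 4.96 at 24 h (4.35 to 5.67). With contact inhibition it was 7.07 (6.19 to 8.09) for day 0, 23.7 (20.3 to 27.9) for day 3 and 103 (86.7 to 124) for day 5. The contact ratio was 3.35 times higher on day 3 than on day 0 and 14.6 times higher on day 5 than on day 0. Counting only inserts that match the hairpin throughout, it was 12.3 on day 0 (10.3 to 14.9), 35.9 on day 3 and 110 on day 5, which is 2.91 times higher on day 3 and 8.90 times higher on day 5 than on day 0. By that count serum 0 h was at 6.78 (6.10 to 7.55) and serum 12 h at 0.975 (0.886 to 1.07).

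By the first 20 bases, each of the 3 libraries labelled G0 had a ratio above each of the 5 others, with serum 0 h (7.20) and contact day 0 (7.07) within counting error of each other. By whole inserts this order did not hold, since contact day 0 (12.3) was above serum 0 h (6.78), and the exact permutation p of the difference was 0.0714. The log2 ratio averaged 4.70 ± 1.92 (SD, n = 3) in the G0 libraries and 1.98 ± 0.98 (SD, n = 5) in the others, a difference of 2.72. An exact two-sided permutation test over libraries gave p = 0.0357, the smallest that the 56 arrangements allow, and 0.321 after Benjamini-Hochberg adjustment over the 9 measures tested this way, so the difference did not pass. Within experiments, G0 minus the other libraries was 2.81 on the log2 scale in the contact experiment and 1.08 in the serum experiment. Without contact day 5 the difference was 1.73.

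**Figure D2:**
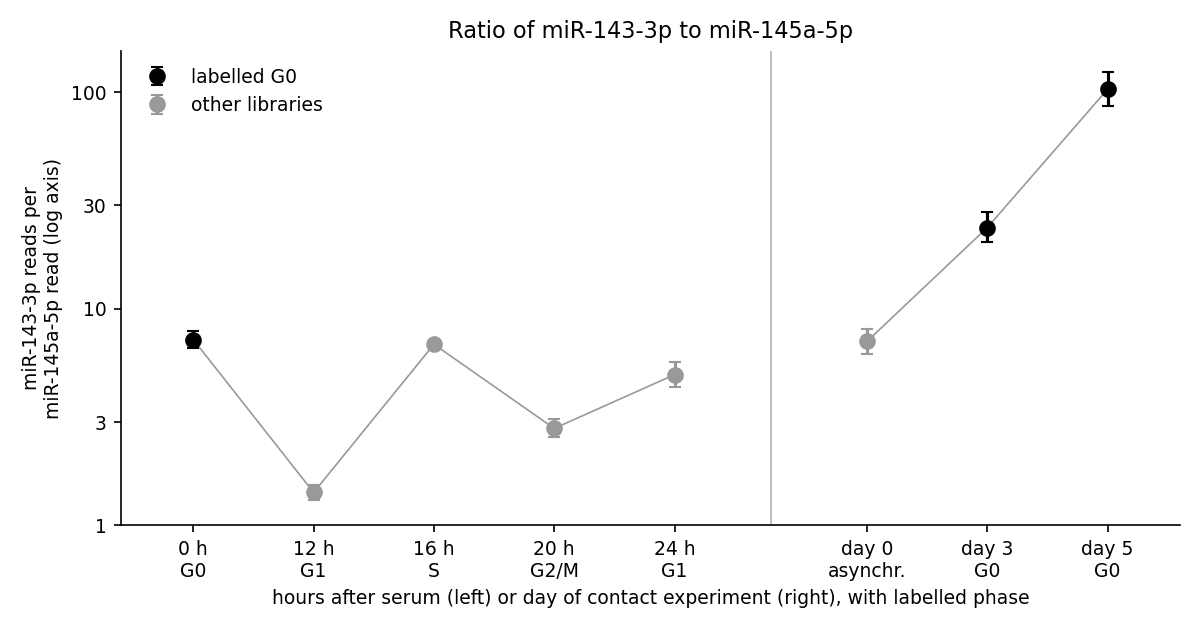
Reads of miR-143-3p per read of miR-145a-5p in each library on a log axis, with 95% intervals from counting error; black points are libraries labelled G0 and grey points the others. The ratio is 103 on contact day 5, 23.7 on day 3 and 7.07 on day 0, and within the serum experiment it lies between 1.42 and 7.20.

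Across the 8 libraries the ratio spanned 72.7-fold. The same span was computed, as a description chosen after these values were seen, for 13 pairs of neighbouring hairpins on the same strand at most 2000 nt apart, with at least 100 reads of each major arm in every library. The miR-143-3p to miR-145a-5p ratio had the widest span of the 13, which had a median span of 4.93-fold. Next came miR-125a-5p to let-7e-5p at 52.3-fold and miR-127-3p to miR-433-3p at 16.6-fold. The narrowest was miR-411-5p to miR-379-5p at 2.45-fold. Without contact day 5 the span of miR-143-3p to miR-145a-5p was 16.7-fold, and without serum 12 h it was 36.8-fold; in each case miR-125a-5p to let-7e-5p, still at 52.3-fold, was wider. With a minimum of 50 reads, miR-351-5p to miR-503-5p, at 128-fold, was the 1 wider pair of 25. In the contact experiment alone, the ratio on day 5 over day 0 was 14.6 for miR-143-3p to miR-145a-5p and at most 4.33, for miR-106b-5p to miR-93-5p, among the other 12 pairs. On day 3 over day 0 it was 3.35, against 3.40 for miR-106b-5p to miR-93-5p and 0.203 for miR-411-5p to miR-299a-3p, so by day 3 the pair was not the one that had changed most.

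**Figure D3:**
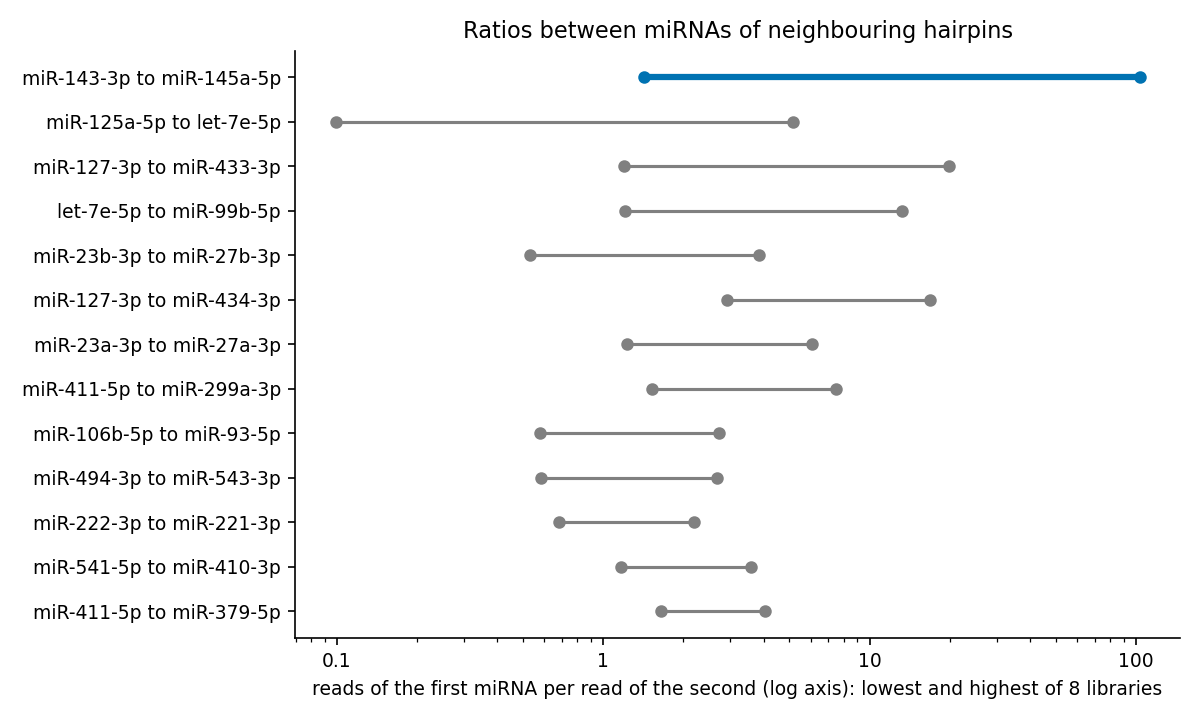
Lowest and highest ratio over the 8 libraries, on a log axis, for 13 pairs of miRNAs from neighbouring hairpins on the same strand, sorted by span; the miR-143-3p to miR-145a-5p pair is in blue. It runs from 1.42 to 103, the widest span of the 13.

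No arm passed the test across all miRNAs of the 3 G0 libraries against the 5 others, in edgeR's quasi-likelihood fit with the experiment as a term. miR-143-3p averaged 24304 CPM in the G0 libraries and 8209 CPM in the others, a log2 difference of 1.01 (SE 0.57, adjusted p = 0.538). The G0 values, 10638, 11042 and 51232 CPM, overlapped the others, which ran from 5296 to 11757 CPM. miR-145a-5p averaged 813 CPM in the G0 libraries and 2152 CPM in the others, a log2 difference of -1.04 (SE 0.51, edgeR adjusted p = 0.465). Its G0 values, 1477, 466 and 497 CPM, overlapped the others at the contact day 0 value of 1374 CPM. miR-143-5p had a log2 difference of 1.02 (SE 0.98, edgeR adjusted p = 0.689). The median log2 difference over all 347 tested miRNAs was -0.31, and 3 of them (0.865%) passed at an adjusted p under 0.05. Of all tested miRNAs 11.2% had an unadjusted edgeR p under 0.05, and 5.09% of those with an adjusted p in DESeq2 passed there. Of the 3 arms, 0 passed, 0 had an unadjusted edgeR p under 0.05, and 0 passed in DESeq2.

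The miR-143-3p difference rested on contact day 5, without which it was 0.30, and it was 0.46 without contact day 0 and 1.89 without serum 0 h. The miR-145a-5p difference stayed between -1.23 and -0.67 when each library was left out in turn. The interaction of G0 with the experiment passed for 0 of 347 miRNAs (0%) in edgeR, with 14 at an unadjusted p under 0.05. Its log2 estimate, contact minus serum, was 1.24 for miR-143-3p (edgeR adjusted p = 0.864) and -0.85 for miR-145a-5p (edgeR adjusted p = 0.887).

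The choice of arm was strongly one-sided for miR-143 and less so for miR-145a. Over all libraries the minor arm made up 1.49% of miR-143 reads and 8.16% of miR-145a reads. The count of miR-145a-3p sums its 3 starts, while each other arm was counted at its main start alone. The share of miR-143-5p was 2.29, 2.55, 1.75, 2.25 and 2.46% at 0, 12, 16, 20 and 24 h after serum and 0.997, 0.635 and 1.03% on contact days 0, 3 and 5. By this count each serum library was above each contact library, so the share moved with the experiment and with the depth, marker and adapter content that differ between them, whose part was not tested. The 39 reads of serum 12 h were of 2 distinct inserts, none of which matched the hairpin throughout. By whole inserts the share there was 0 of 855 reads, which allows up to 0.351%, below the 0.404 to 0.734% of the contact libraries, so the order did not hold.

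For miR-145a, the share of miR-145a-3p was 7.52, 6.41, 10.5, 2.87 and 11.1% in the serum libraries. Contact days 0, 3 and 5 gave shares of 2.69% (exact 95% interval 1.09 to 5.47), 8.33% (4.74 to 13.4) and 16.9% (11.3 to 23.8), from 7, 15 and 26 reads. Over the same days the reads of the 5p arm numbered 253, 165 and 128. By TMM-scaled level miR-145a-3p was at 38.0, 42.4 and 101 CPM on these days, and miR-145a-5p at 1374, 466 and 497 CPM. On day 5 the 3p arm was thus above its day 0 level, on few reads, and the 5p arm below its own. The minor-arm share averaged 1.32% in the G0 libraries and 2.00% in the others for miR-143, and 10.9% in the G0 libraries and 6.71% in the others for miR-145a. Neither difference passed, with an exact permutation p of 0.286 for each and 0.429 after adjustment. Without contact day 5 the miR-145a difference was 1.22 percentage points. Within experiments, G0 minus the other libraries was 9.92 percentage points in the contact and -0.19 in the serum experiment for miR-145a. For miR-143 it was -0.16 in the contact and 0.038 in the serum experiment.

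**Figure D4:**
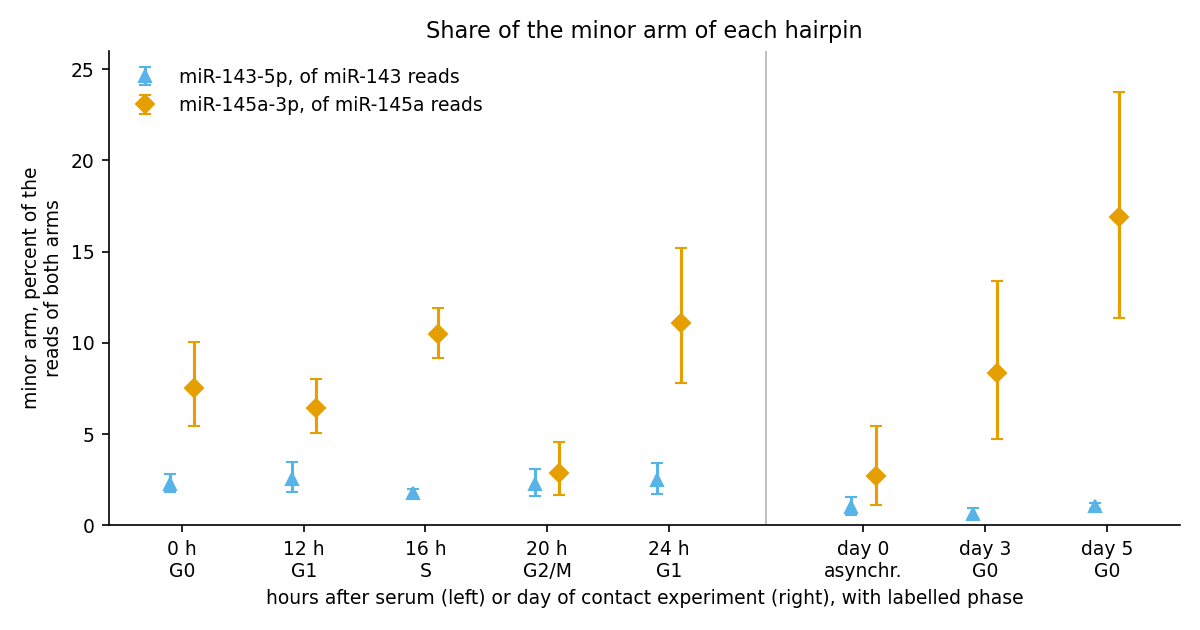
Share of the minor arm among the reads of both arms of its hairpin, in percent, for each library, with exact 95% binomial intervals from counting error. The miR-145a-3p share is 2.69% on contact day 0 and 16.9% on day 5, while the miR-143-5p share lies between 0.635 and 2.55% in all 8 libraries.

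The 5′ end sets the seed, the bases that pair with targets, and it varied little. Among inserts that matched the hairpin throughout, 98.7% of miR-143-3p (98.1 to 100% over libraries) and 96.9% of miR-145a-5p (94.1 to 100%) began at the main position. miR-145a-3p was the exception. Counted by the first 20 bases, and not by whole inserts, it had 221, 122 and 78 reads at 3 successive starts. At serum 12 h all 72 of its reads began at the second of these starts, where the other 7 libraries held 50 reads, against 221 at the first.

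The 3′ ends differed between the arms. miR-143-3p ended 21 nt from its start in 47.1% of all reads and 20 nt from it in 28.3%, and 19.9% carried added U that the hairpin does not hold. miR-145a-5p had no such main form, with 17.1% of its reads at 20 nt, 19.2% at 22 nt and 20.8% at 23 nt, and it carried added A in 14.7% of reads and added U in 1.82%. Such additions are known to be made by terminal uridylyl and adenylyl transferases after the hairpin has been cut. Library preparation and read errors can give the same letters, and their part was not tested.

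Added U on miR-143-3p was frequent in the serum libraries, at 25.5, 42.5, 27.7, 25.0 and 23.0% of reads at 0, 12, 16, 20 and 24 h. It was at 6.66, 3.12 and 14.3% on contact days 0, 3 and 5, so each serum library was above each contact library. Most of these reads were the 21-nt form with 1 added U, which made up 34.3% of miR-143-3p reads at serum 12 h, 2.35% after 3 days and 12.0% after 5 days of the contact experiment. The median share of reads with added U over all miRNAs with at least 100 reads in the library was at most 3.00% in any library, and at serum 0 h and 12 h it was 0.932 and 0%. Only 10 of 146 miRNAs at serum 0 h, 6 of 138 at 12 h and 17 of 143 on contact day 5 had a higher share of added U than miR-143-3p. On contact day 3, 49 of 144 had a higher share.

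Added A on miR-145a-5p was most frequent on contact days 0 and 3, while day 5 lay within the range of the serum libraries. It was at 6.75, 12.0, 14.7, 12.5 and 21.7% in the serum libraries and at 31.2, 27.3 and 13.3% on contact days 0, 3 and 5. On contact day 0 only 4 of 108 miRNAs had a higher share of added A, and the median of all was 9.73%. On day 5, 26 of 143 had a higher share, and the median was 6.27%. Serum 0 h held the 1 case of frequent added U on miR-145a-5p, at 11.3% of reads, which were of 9 distinct inserts in all.

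Of the 6 measures of 3′ ends tested, 0 passed between the G0 libraries and the others. The share of miR-143-3p reads with an end that does not match the hairpin averaged 15.8 ± 10.3% (SD, n = 3) in the G0 libraries and 28.1 ± 11.9% (SD, n = 5) in the others, with an exact permutation p of 0.214 and 0.429 after adjustment. The permutation does not take the experiment into account, and 2 of the 3 G0 libraries but 1 of the 5 others are contact libraries. Within experiments the difference changed sign, at 1.06 percentage points in the contact and -6.61 in the serum experiment. The mean length of miR-145a-5p inserts was 22.28 nt in the G0 libraries and 22.68 nt in the others, with an exact permutation p of 0.143 and 0.429 after adjustment. The other 4 measures had adjusted p-values of 0.429 to 0.893 by the same exact test. These p-values do not show that the ends were alike.

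**Figure D5:**
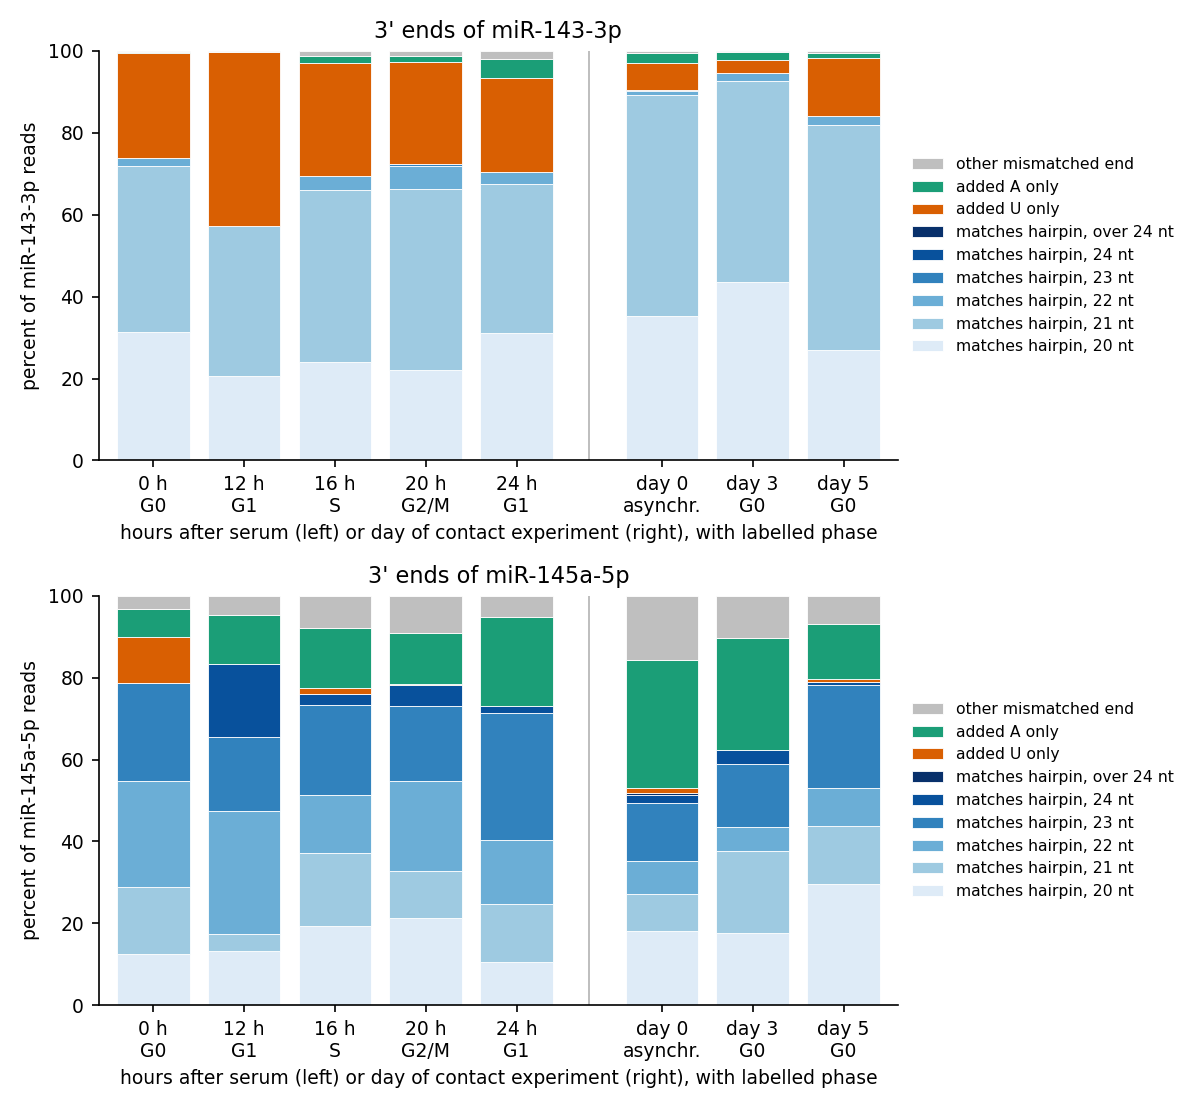
Reads of miR-143-3p (upper panel) and miR-145a-5p (lower panel) by their 3′ end, in percent of the reads of the arm in each library; blue shades match the hairpin, with the length from the 5′ end in nt, orange has added U only, green added A only and grey other mismatched ends. Added U on miR-143-3p lies between 23.0 and 42.5% in the serum libraries and between 3.12 and 14.3% in the contact libraries.

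The miRNAs whose levels followed each arm most closely were different ones. Likeness was measured as the root mean square difference of log2 levels over the 8 libraries after each miRNA's own mean was taken away, among 227 others with a mean of at least 100 CPM. Nearest to miR-143-3p were miR-21a-5p (0.25), miR-379-5p (0.27), miR-411-5p (0.34), let-7i-5p (0.34) and miR-497a-5p (0.38), against a median of 1.31 over all. miR-21a-5p, an abundant miRNA of fibroblasts and proliferating smooth muscle, was at 47388 CPM on contact day 0, 81622 CPM on day 3 and 230474 CPM on day 5. In the serum libraries it was also lowest at 12 h, with 39035 CPM.

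Nearest to miR-145a-5p were miR-34b-3p (0.31), miR-299a-5p (0.42), miR-23b-3p (0.42), miR-434-3p (0.44) and miR-409-3p (0.44), against a median of 1.39. miR-145a-5p itself was in place 169 of 227 from miR-143-3p, at 1.77, farther than the median miRNA. miR-143-5p, from the same hairpin as miR-143-3p, was in place 18.

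A list of 16 miRNAs linked to smooth muscle or serum response factor was set beside the pair, and 13 of them could be tested in G0 against the other libraries. In edgeR 0 of the 13 passed and 3 had an unadjusted p under 0.05, beside 11.2% of all tested miRNAs. In DESeq2 0 of the 11 with an adjusted p passed, beside 5.09% of all. Of the 13, 5 had a positive difference, and their median log2 difference was -0.24, against -0.31 over all tested miRNAs. The highest values were those of miR-29b-3p, which represses collagens, at 1.52 (SE 0.70), miR-21a-5p at 1.03 (SE 0.48) and miR-199a-5p at 0.87 (SE 0.55). miR-221-3p and miR-222-3p, which favour proliferation of smooth muscle, had log2 differences of -0.37 (SE 0.40) and -0.87 (SE 0.41). Differences of miR-31-5p, miR-26a-5p, miR-24-3p, miR-100-5p, miR-214-3p and miR-206-3p lay between 0.67 and -0.92. The muscle miRNA miR-1a-3p, at 0 to 21 reads a library, and miR-146a-5p, at 0 to 17 reads, were too rare for a level. miR-133a-3p, miR-133b-3p and miR-204-5p did not enter the table of mature miRNAs.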

How the data were processed

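Per the labels, small RNAs of NIH-3T3 cells were sequenced; for library preparation they cite a publication. The deposited files give, per the values they hold, a count for each distinct 36-nt read, with the 3′ adapter still in it, and no alignment or normalization. For the read caller, filters and genome build, nothing is stated: not given in the sources used here.

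The adapter was removed where at least 6 bases were seen (1 mismatch per 8 bases), and inserts of 16 to 30 nt were kept without marker oligonucleotides (12 shared bases). Reference hairpins came from GENCODE (GRCm38). Arms were defined from pooled inserts of 18 to 26 nt that match a hairpin (at least 10 reads, 50% at 1 5′ end). Of 422 arms, 47 come from more than 1 hairpin, and 329 took their names from RefSeq. miR-145b, similar to miR-145a at its start, differs within the 20 bases counted.

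The test was edgeR 4.0.16 (R 4.3.3; quasi-likelihood, TMM, experiment term, two-sided, Benjamini-Hochberg over all miRNAs with at least 10 CPM in 3 libraries), checked on simulated data. DESeq2 1.42.0 was an alternative, as were other scalings, filters, matching rules and leaving out each library. Shares have exact binomial and ratios exact conditional binomial 95% intervals. Reads carry no molecular identifiers, so intervals cover counting error only, and p-values cover only the spread between the libraries at hand. Single-library comparisons used miRNAs with at least 100 reads in either library. Python 3.11.15, numpy 2.4.6, scipy 1.17.1 and pandas 2.3.3 were used. The miRNAs named are the arms of the pair, the 5 nearest to each major arm, the tested members of the smooth-muscle list and, chosen after their values were seen, pairs of neighbouring hairpins. Members and lists were chosen with earlier results of these data known.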

Additional observations from a re-analysis of the deposited data

How the results depend on the processing

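The count of miRNAs past the threshold for G0 against the other libraries was 3, and it was 8 with no filter on low counts, 1 with no experiment term, 14 in DESeq2 and 0 to 12 when each library was left out in turn, with 0 without serum 0 h or 24 h, 1 without serum 20 h or contact day 5, 5 without contact day 3 and 12 without serum 16 h. No setting brought an arm of miR-143 or miR-145a past the threshold or turned its direction. TMM put the median log2 difference of all miRNAs at -0.31 and total-read scaling at -0.11, which also turned the ratios of serum 0 h over 16 h, to 1.11 for miR-143-3p and 1.06 for miR-145a-5p.

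The log2 difference of the miR-143-3p to miR-145a-5p ratio was positive in all 11 alternatives, from 1.73 to 3.65 when each library was left out, but with whole inserts contact day 0 was above serum 0 h. Counting only inserts that match the hairpin throughout turned the G0 difference of the miR-143-5p share to 0.143 percentage points and that of the most common miR-143-3p insert to -2.22, and left no miR-143-5p read at serum 12 h and so no ratio to it. For miR-145a-5p, inserts of 20 to 24 nt turned the most common insert to -1.07 and mismatched ends to 3.91. Leaving out libraries in turn gave -1.22 to 3.71 and -6.20 to 4.42 for these 2 measures, and 1.22 to 5.90 for the miR-145a-3p share. The cause of these turns was not tested. No paired analysis was possible because each condition has 1 library and the labels give no replicate numbers. Depth limits miR-145a-5p most, with 128 reads on contact day 5, and the minor arms, with 7 to 218 reads.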
